A study of Homo sapiens with 4 samples.

Results

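ALB, AFP, TTR, GPC3, H19, DLK1, LIN28B, IGF2BP1, IGF2BP3 and EPCAM are 10 genes by which fetal liver, adult liver and liver cancer are commonly told apart. They were chosen by name, and all 10 were found among the 24462 genes of the count files after repeated symbols had been summed. The cells were HepG2, a human liver cancer cell line from a hepatoblastoma-type tumour that makes many plasma proteins in culture. The study asked how HepG2 cells respond when the cell cycle kinases CDK4 and CDK6 are blocked, either by the small molecule PD0332991 or by siRNA. There were 4 libraries, 1 per condition: cells given the vehicle DMSO, cells given PD0332991, cells given scrambled siRNA, and CDK4/6 KD cells given siRNAs to both kinases. The sources used here give neither the dose nor the treatment time behind the libraries, and all libraries come from 1 cell line with no other alteration named in the labels.

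Each library was made with a 3′ mRNA kit from 500 ng of RNA, read as 75-base single-end reads, and held 8983848 to 11176880 counted reads. Such a kit primes at the poly(A) tail, so reads pile up at the transcript end and counts were not divided by length. Levels are given as CPM, the count of a gene per 1000000 counted reads of its library, after scaling by the trimmed mean of M-values (TMM), which evens out library size and composition. CDK4 stood at 354 CPM with scrambled siRNA and 71.9 CPM in CDK4/6 KD, and CDK6 at 536 and 129 CPM, so both targeted transcripts were lower in the library labelled as knockdown. All 10 hepatocyte-lineage markers on a separate list (such as APOA1, APOB and FGB) had at least 10 reads in every library, with a summed level of 17880 to 22960 CPM. Since no condition was repeated, there is no replicate check and no p-value, and each fold change carries a 95% interval that covers counting error only. In a bulk library, fewer cells expressing a gene and less RNA per cell cannot be told apart.

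Albumin, encoded by ALB, is the main plasma protein of the adult liver, and AFP encodes alpha-fetoprotein, its fetal relative from the same gene cluster, which many liver cancers make again. TTR encodes transthyretin, a carrier of thyroid hormone and, with retinol-binding protein, of vitamin A. GPC3 is a heparan sulfate proteoglycan of the cell surface, DLK1 a membrane protein of fetal liver, EPCAM a surface adhesion protein of hepatic progenitors, and H19 an imprinted long noncoding RNA. LIN28B blocks the maturation of let-7 microRNAs, and IGF2BP1 and IGF2BP3 bind messenger RNAs, among them IGF2. These RNA-binding proteins are made in the embryo, are scarce in adult liver, and are well-known let-7 targets.

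ALB had the largest ratio of the set between the knockdown and its control. It had 30328 reads in DMSO, 27771 in PD0332991, 27539 in scrambled siRNA and 58465 in CDK4/6 KD, or 3319, 3050, 2574 and 5165 CPM. The knockdown library stood above the other 3, and ALB was the 6th most counted gene there, against the 26th with scrambled siRNA. The level in CDK4/6 KD was 2.01 times that with scrambled siRNA (95% interval 1.98 to 2.04), and ALB ranked 1249 from the top among 13617 genes with 10 reads or more in 1 of the libraries compared. It was the only one of the 9 genes of the set that passed this minimum to reach 2-fold in either direction, beside 9.19% of all genes tested that were higher by this measure and 7.62% that were lower. Where genes averaged 500 reads or more (4415 genes), 2.38% reached 2-fold upward. The interval runs across 2-fold, and against DMSO the ratio was 1.56 (1.54 to 1.58), because ALB with scrambled siRNA was 0.775 times its DMSO level (0.763 to 0.788). With PD0332991 it was 0.919 times the DMSO level (0.904 to 0.934) but 1.19 times the scrambled level (1.17 to 1.21), so its direction turned with the control.

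AFP behaved otherwise. It had 5242 reads in DMSO, 3589 in PD0332991, 7399 in scrambled siRNA and 8190 in CDK4/6 KD, or 574, 394, 692 and 724 CPM. The 2 siRNA libraries were highest and close to each other, with a ratio of 1.05 (1.01 to 1.08), while PD0332991 was lowest, at 0.687 times DMSO (0.658 to 0.717). Against scrambled siRNA the PD0332991 level was 0.570 times (0.548 to 0.593), so AFP was lower with PD0332991 against either control.

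The ratio of ALB to AFP reads within a library needs no scaling between libraries. It was 5.79 in DMSO (5.62 to 5.96), 7.74 in PD0332991 (7.47 to 8.01), 3.72 in scrambled siRNA (3.63 to 3.82) and 7.14 in CDK4/6 KD (6.98 to 7.31). Both libraries with CDK4/6 inhibition stood above both controls. Against its own control, CDK4/6 KD had more ALB at a near-equal AFP level, and PD0332991 had less AFP at a near-equal ALB level. Against the control of the other arm this did not hold. AFP in CDK4/6 KD was 1.26 times DMSO (1.22 to 1.31), and ALB with PD0332991 was 1.19 times scrambled siRNA (1.17 to 1.21). The controls themselves differed, at 3.72 and 5.79.

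**Figure D1:**
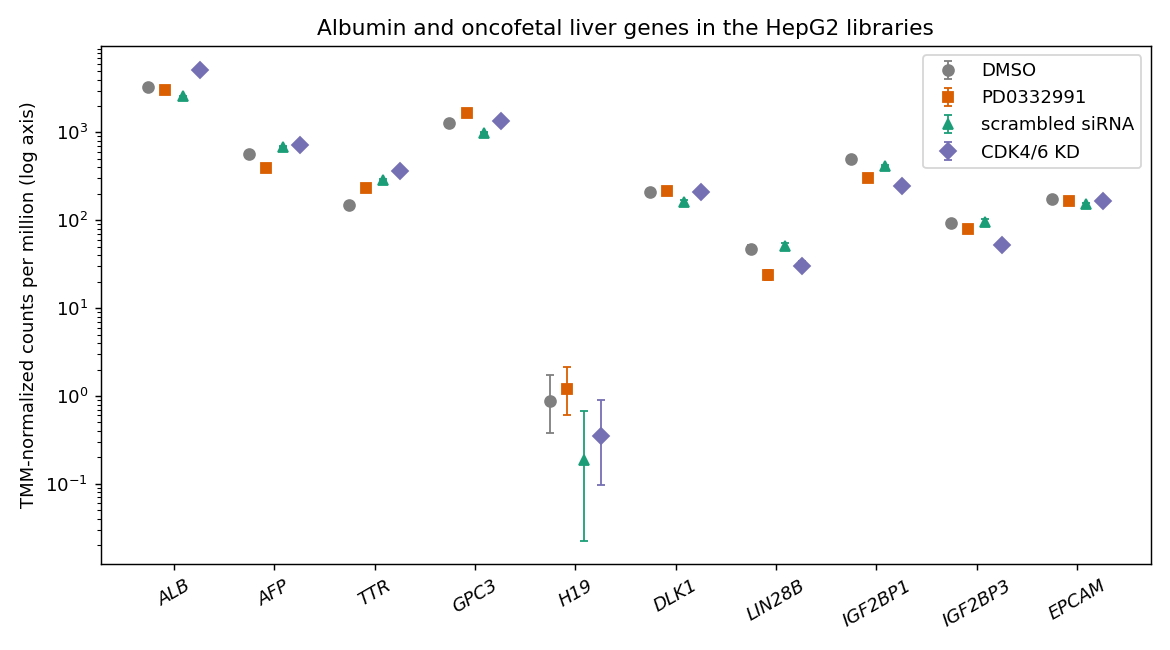
TMM-normalized CPM (log axis) of the 10 genes in each of the 4 libraries; bars are 95% counting intervals, which are smaller than the symbol for most genes. ALB ran from 2574 to 5165 CPM and H19 stayed at 1.21 CPM or below; LIN28B and IGF2BP1 were lower with PD0332991 and CDK4/6 KD than in both controls.

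The promoter windows of ALB and AFP, the neighbours of the albumin cluster whose ratio differed between the libraries, are shown with the TATA box letters TATAAA and the CCAAT box letters CCAAT in capitals on either strand. Both boxes are common elements of promoters that lie a short way before the start. The sequences are from RefSeq (GRCh38.p14, a later build than the hg19 of the files), cover 250 bases before to 50 after the start, and run 5′ to 3′ on the plus strand, at chr4:73404037-73404336 for ALB and chr4:73435971-73436270 for AFP.
ALB: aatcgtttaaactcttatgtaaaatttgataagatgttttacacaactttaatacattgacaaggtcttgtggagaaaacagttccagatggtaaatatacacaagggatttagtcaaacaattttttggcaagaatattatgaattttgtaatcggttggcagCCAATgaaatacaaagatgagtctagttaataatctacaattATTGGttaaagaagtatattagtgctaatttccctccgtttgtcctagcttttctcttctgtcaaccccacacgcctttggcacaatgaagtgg
AFP: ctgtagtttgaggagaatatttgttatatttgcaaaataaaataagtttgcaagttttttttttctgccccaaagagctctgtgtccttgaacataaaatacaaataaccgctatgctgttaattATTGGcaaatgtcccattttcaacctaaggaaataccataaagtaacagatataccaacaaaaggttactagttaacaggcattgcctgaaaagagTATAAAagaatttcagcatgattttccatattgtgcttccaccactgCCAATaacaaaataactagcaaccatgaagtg

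In ALB, CCAAT begins at -86 from the start on the plus strand and at -44 on the other strand, and TATAAA was not found in the window. In AFP, TATAAA begins at -29, and CCAAT at -125 on the other strand and at 19 after the start on the plus strand. Counting either strand, 34.6% of 35116 windows of the same length hold CCAAT and 11.5% hold TATAAA, and none of the printed matches overlap. Of the other genes, RefSeq windows of H19, LIN28B and IGF2BP3 were found. None held TATAAA, and CCAAT was present in 1 of the 2 LIN28B windows only. These are letter matches and say nothing of binding in these cells.

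Among the 9 genes other than H19, TTR had the largest ratio between the 2 controls. It had 1380 reads in DMSO, 2117 in PD0332991, 3068 in scrambled siRNA and 4095 in CDK4/6 KD, or 151, 233, 287 and 362 CPM. Each step in this order was larger than its counting interval. Scrambled siRNA was 1.90 times DMSO (1.78 to 2.02), more than the 1.54-fold of PD0332991 over DMSO (1.44 to 1.65) or the 1.26-fold of CDK4/6 KD over scrambled siRNA (1.20 to 1.32). Against scrambled siRNA, TTR with PD0332991 was lower, at 0.811 times (0.767 to 0.857), and against DMSO, CDK4/6 KD reached 2.40-fold (2.25 to 2.55).

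GPC3, the surface proteoglycan used to stain liver cancers, was the most counted of the set after ALB. It had 11670 reads in DMSO, 15148 in PD0332991, 10631 in scrambled siRNA and 15419 in CDK4/6 KD, or 1277, 1664, 994 and 1362 CPM. Both inhibition libraries stood above both controls, by 1.30-fold for PD0332991 over DMSO (1.27 to 1.34) and 1.37-fold for CDK4/6 KD over scrambled siRNA (1.34 to 1.41). CDK4/6 KD over DMSO was 1.07-fold (1.04 to 1.09), since the controls differed by a factor of 0.778.

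DLK1, a Notch-related ligand of hepatoblasts, had 1896, 1965, 1718 and 2387 reads in DMSO, PD0332991, scrambled siRNA and CDK4/6 KD, or 208, 216, 161 and 211 CPM. The scrambled library was low and the other 3 were close together. Its ratio of 1.31 in the knockdown (1.23 to 1.40) therefore became 1.02 against DMSO (0.956 to 1.08), and PD0332991 over DMSO was 1.04 (0.976 to 1.11).

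Among the same 9 genes, EPCAM had the smallest ratio of highest to lowest CPM. It had 1595, 1502, 1622 and 1895 reads in the same order, or 175, 165, 152 and 167 CPM. The ratio was 1.10 in the knockdown (1.03 to 1.18) and 0.945 with PD0332991 (0.880 to 1.02), and against DMSO the knockdown ratio was 0.959 (0.897 to 1.03). Against scrambled siRNA the PD0332991 ratio was 1.09 (1.01 to 1.17), so both directions turned with the control.

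H19 was almost absent from these libraries. It had 8 reads in DMSO, 11 in PD0332991, 2 in scrambled siRNA and 4 in CDK4/6 KD, or 0.876, 1.21, 0.187 and 0.353 CPM. It passed the minimum of 10 reads with PD0332991, where the ratio to DMSO was 1.36 (0.506 to 3.95), so no difference was detectable at this depth. Against the 2 reads of the scrambled library the PD0332991 ratio was 5.30, with an interval of 1.41 to 60.0. IGF2, its imprinted neighbour, had 20859 to 41621 reads, but the overlapping gene INS-IGF2 was listed with nearly the same numbers, 20852 to 41601, so reads there cannot be assigned to 1 of the 2. H19 hosts the microRNA gene MIR675, which such a poly(A) library does not measure.

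The embryonic RNA-binding proteins LIN28B, IGF2BP1 and IGF2BP3 were lower in both inhibition libraries than in both controls. LIN28B had 430 reads in DMSO, 216 in PD0332991, 539 in scrambled siRNA and 346 in CDK4/6 KD, or 47.1, 23.7, 50.4 and 30.6 CPM. The controls differed by less than the counting interval (ratio 1.07, 0.941 to 1.22), and the inhibition libraries lay at 0.505 (0.426 to 0.595) and 0.607 (0.529 to 0.696) times their own control. IGF2BP1 had 4580, 2759, 4454 and 2791 reads, or 501, 303, 416 and 247 CPM. Its level was 0.605 times the control with PD0332991 (0.576 to 0.634) and 0.592 times in CDK4/6 KD (0.565 to 0.621), with the scrambled library at 0.830 times DMSO.

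IGF2BP3 had 844, 722, 1030 and 589 reads, or 92.4, 79.3, 96.3 and 52.0 CPM. It was lower in the knockdown, at 0.541 times (0.488 to 0.599), than with PD0332991, at 0.859 times (0.776 to 0.949). The related IGF2BP2, which adult tissues keep, had a ratio of 0.712 in the knockdown (0.663 to 0.763) and 1.01 with PD0332991 (0.943 to 1.08). The 3 RNA-binding genes together held 641 CPM in DMSO and 563 with scrambled siRNA, against 406 with PD0332991 and 329 in CDK4/6 KD. With the controls exchanged, LIN28B, IGF2BP1 and IGF2BP3 in CDK4/6 KD were at 0.650, 0.492 and 0.564 times DMSO, and with PD0332991 at 0.472, 0.728 and 0.824 times scrambled siRNA, and every one of these intervals lay below 1.

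At a threshold of 1.5-fold, these 3 were the genes of the set that were lower in CDK4/6 KD, beside 17.4% of all genes tested, and LIN28B and IGF2BP1 were lower with PD0332991, beside 15.1%. No gene of the set was 2-fold lower or higher with PD0332991, where 7.06% and 7.49% of 13443 genes were, though LIN28B stood just outside, at 0.505 times. Over the 4 libraries, 3 of the 10 genes were lower in both inhibition libraries than in both controls, and 2, GPC3 and DLK1, were higher in both. For DLK1 the ratios to DMSO were 1.02 in CDK4/6 KD and 1.04 with PD0332991, and both intervals held 1. Of 13961 genes with at least 10 reads in a library, 21% were lower in this sense and 21.3% higher. With 10 genes, 3 and 2 are near those shares.

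**Figure D2:**
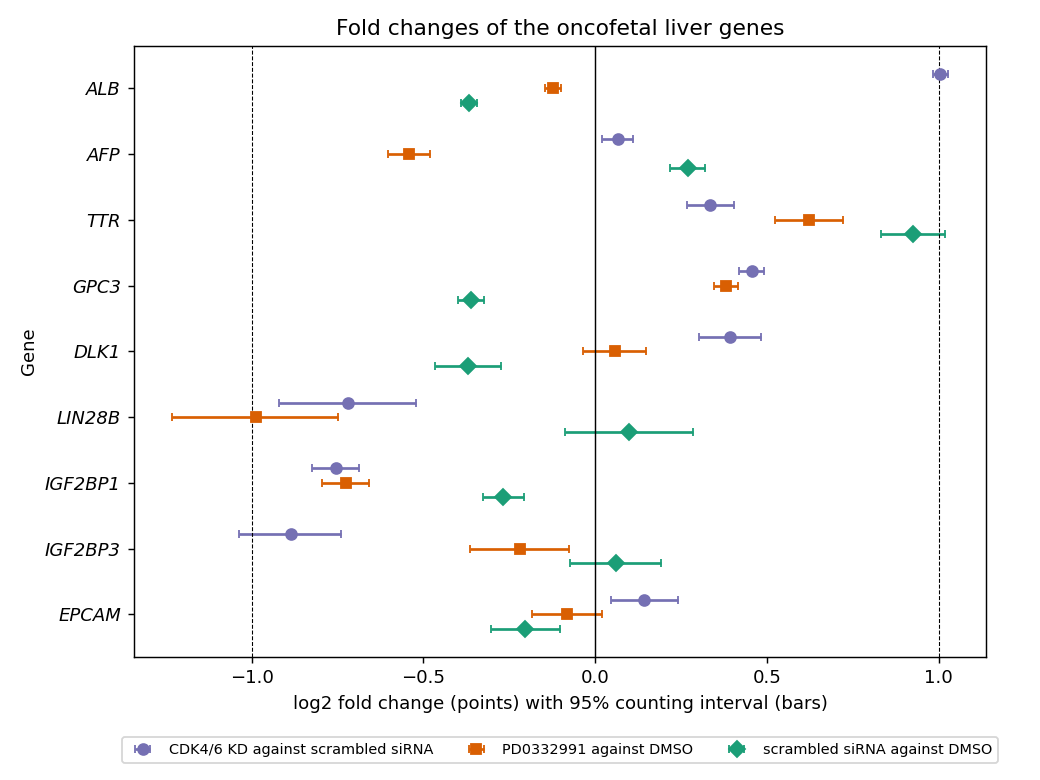
Log2 fold changes of the 9 genes other than H19 in CDK4/6 KD against scrambled siRNA, PD0332991 against DMSO, and scrambled siRNA against DMSO; bars are 95% counting intervals and dashed lines mark 2-fold. LIN28B, IGF2BP1 and IGF2BP3 lie left of 0 in both inhibition comparisons, ALB reaches 1.00 in CDK4/6 KD only, and TTR lies at 0.92 between the controls.

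The let-7 microRNAs, which LIN28B holds back, bind with a seed that 9 mature names share, and 2 of them are shown with bases 2 to 8 in capitals. Their target letters CTACCTC, the reverse complement of the seed, are capitalised in 1 match each from the 3′ ends of the RNA-binding genes, to let the pairing be read. The mature sequences are from RefSeq (GRCh38.p14) and the target sites from GENCODE 29 transcripts (GRCh38), 5′ to 3′.
let-7a-5p: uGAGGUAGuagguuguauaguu
let-7g-5p: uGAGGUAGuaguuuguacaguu
LIN28B site: acccggttgcaaagtCTACCTCa
IGF2BP1 site: cagcagtgctagtaaCTACCTCa
IGF2BP3 site: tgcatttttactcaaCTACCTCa

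LIN28B and IGF2BP1 held 4 such matches each in their untranslated 3′ parts of 4549 and 6206 bases, and IGF2BP3 held 1 in 2153 bases. None was found in ALB, AFP, TTR, GPC3, DLK1 or EPCAM, of which all but DLK1 (3328 bases) have short 3′ parts of 336 to 554 bases. Over 18784 genes, 8.62% had a match, and 15.4% of those with at least 1000 bases had one. At least 3 matches were present in 0.165% of genes of all lengths. No such share was taken for 3′ parts as long as those of LIN28B and IGF2BP1. Mature let-7 was not measured here, and the matches are a description of the letters only.

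The rest of the LIN28B and let-7 axis was mixed. For this list and those below, 9.19% of all genes tested were at least 2-fold higher and 7.62% lower in CDK4/6 KD. With PD0332991 these shares were 7.49% and 7.06%, and in scrambled siRNA against DMSO 5.3% and 6.64%. A gene with fewer than 10 reads in 1 library of a comparison passed the minimum only through the other, which all but fixed its direction. Among the genes named below, this holds for CYP7A1, CYP2E1, HAL, SALL4 and SPINK1 in CDK4/6 KD. It also holds for MEG3 and CD44 with PD0332991. Of the 18 genes of the list that passed the minimum in CDK4/6 KD, 3 were at least 2-fold lower and none 2-fold higher, with a median log2 change of -0.32 against -0.0036 for all genes. With PD0332991, 1 of 18 was 2-fold lower and the median was -0.20 against 0.018. CDC25A, the phosphatase that activates CDKs, was lower in both, from 792 to 230 reads with the knockdown (0.275 times, 0.236 to 0.318) and from 512 to 84 with PD0332991 (0.166 times, 0.129 to 0.208). The RAS gene NRAS went from 597 to 224 reads in the knockdown (0.355 times, 0.303 to 0.414). HMGA2, which holds 4 let-7 letter matches, was not lower in the knockdown, with a ratio of 1.13 (1.08 to 1.17), and had 0.731 with PD0332991 (0.701 to 0.763). LIN28A, the paralog of LIN28B, had at most 7 reads in a library.

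Other plasma carriers stood nearer to ALB than to AFP in the knockdown. Of 10 carriers that passed the minimum, 3 were at least 2-fold higher and none lower, with a median log2 change of 0.80. Among their intervals 8 lay above 1 and 1 below, where 4082 of all 13617 genes tested lay above and 4343 below. HPX, which encodes the heme carrier hemopexin, went from 85 to 791 reads (8.75-fold, 7.03 to 11.1), and VTN, the adhesive plasma protein vitronectin, from 261 to 694 reads (2.51-fold, 2.18 to 2.91). RBP4, the retinol carrier that travels with transthyretin, was 1.85-fold (1.77 to 1.94), and CP, the copper carrier ceruloplasmin, was the exception, at 0.560 times (0.468 to 0.667). With PD0332991 the median was 0.21 and SHBG alone passed 2-fold, from 15 to 67 reads (4.37-fold, 2.53 to 8.45). The carriers also differed between the controls, with a median of -0.48 in scrambled siRNA against DMSO. AFM and GC, the remaining relatives in the albumin cluster, had at most 5 and 3 reads.

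Of 19 liver transcription factors known to act on ALB or AFP, 4 were at least 2-fold higher and 1 lower in CDK4/6 KD (median 0.30), and none passed 2-fold with PD0332991 (median 0.005). The nuclear receptor NR2F2 went from 754 to 1955 reads (2.45-fold, 2.25 to 2.67) and ONECUT1, also called HNF6, from 23 to 84 reads (3.40-fold, 2.16 to 5.74). NR5A2, a nuclear receptor of bile acid synthesis, went from 102 to 29 reads (0.272 times, 0.172 to 0.409). These factors set the controls apart too: NR2F2 with scrambled siRNA was 0.429 times DMSO, ONECUT1 was 0.33 times and NR5A2 was 2.97 times. In the knockdown NR2F2, ONECUT1 and NR5A2 stood at 173, 7.42 and 2.56 CPM, against 164, 6.57 and 3.17 CPM in DMSO. With DMSO as the control the median of the list in the knockdown was -0.16. HNF4A, a central factor of the hepatocyte, differed little in the knockdown (1.09-fold, 1.02 to 1.17) and was 1.36-fold with PD0332991 (1.27 to 1.46).

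Enzymes and transporters of the mature hepatocyte were higher in part. Of 14 that passed the minimum in CDK4/6 KD, 6 were at least 2-fold higher and 1 lower, with a median of 0.65. Among the higher genes, CYP7A1, CYP2E1 and HAL passed only through the knockdown library, so their direction was all but fixed by the minimum. HAL had 4 and 11 reads (2.43-fold, 0.770 to 11.2). CYP7A1, the rate-limiting enzyme of bile acid synthesis, had 1 read with scrambled siRNA and 79 in the knockdown, and CYP2E1, an ethanol-oxidising cytochrome, had 0 and 21 reads, at least 6.62-fold against a floor of 3 reads. BAAT, which joins bile acids to amino acids, went the other way, from 362 to 108 reads (0.283 times, 0.225 to 0.351), but DMSO had 39 reads, so that the 9.54 CPM of the knockdown lay above the 4.27 CPM of DMSO and the direction turned with the control. With PD0332991 the median was 0.17 and G6PC, the last enzyme of glucose release, went from 12 to 67 reads (5.42-fold, 3.01 to 11.4). Several enzymes of adult liver, among them TDO2 and SLCO1B1 at 0 reads in all libraries, were not detected in these cells.

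Among 9 glypicans and heparan sulfate genes around GPC3, 3 were at least 2-fold higher in CDK4/6 KD and none lower (median 0.46), and 1 was higher with PD0332991 (median 0.31). The protease FURIN, which cleaves GPC3, went from 126 to 355 reads (2.66-fold, 2.17 to 3.29) and the sulfatase SULF2 from 111 to 285 (2.42-fold, 1.94 to 3.05). In scrambled siRNA against DMSO 4 of the 9 were at least 2-fold lower, FURIN at 0.312 times and SULF2 at 0.385 times, so that in the knockdown both lay below their DMSO levels (FURIN 31.4 against 37.9 CPM, SULF2 25.2 against 27.0 CPM). GPC2 went from 19 to 44 reads with PD0332991 (2.29-fold, 1.33 to 4.22).

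Of 13 imprinted genes besides H19 and DLK1 that passed the minimum in CDK4/6 KD, 9 had intervals above 1 and 1 below, and with PD0332991 6 of 14 lay above and 5 below. Over all genes tested, 4082 of 13617 lay above 1 and 4343 below in CDK4/6 KD, and 3783 and 3842 of 13443 with PD0332991. Between the controls 7 of 13 lay below 1 and 3 above (median -0.57), where 3727 of all 13303 genes lay below and 3767 above. In CDK4/6 KD 1 of 13 was 2-fold higher and 1 lower (median 0.25): SGCE, a sarcoglycan, went from 30 to 125 reads (3.89-fold, 2.63 to 6.08), and PHLDA2, a growth-restraining placental gene, from 830 to 120 (0.137 times, 0.112 to 0.166). With PD0332991 2 of 14 were 2-fold higher (median 0.085), namely the receptor adaptor GRB10 (2.00-fold, 1.64 to 2.47) and MEG3, the noncoding RNA of the DLK1 locus, at 8 and 22 reads (2.66-fold, 1.18 to 7.17). The scrambled library had 30 reads of SGCE against 96 in DMSO and 830 of PHLDA2 against 179.

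Surface and progenitor genes that go with EPCAM had a median near that of all genes in the knockdown (-0.02, 17 passing) and of -0.16 with PD0332991. PROM1, the stem cell antigen CD133, went from 78 to 201 reads in the knockdown (2.43-fold, 1.87 to 3.21), and SALL4, an embryonic zinc finger factor, had 4 and 10 reads (2.22-fold, 0.682 to 10.3). The biliary keratin KRT19 went from 12181 to 6122 reads (0.475 times, 0.461 to 0.490), but the DMSO library had 3232, fewer than either. CD44, a hyaluronan receptor, had 9 and 23 reads in DMSO and PD0332991 (2.48-fold, 1.14 to 6.30).

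Other serum and tissue markers of liver cancer were found in both directions. Of 11 in CDK4/6 KD, 2 were 2-fold higher and 2 lower (median 0.18): the trypsin inhibitor SPINK1 (8 to 62 reads, 6.96-fold, 3.50 to 17.7) and the guidance receptor ROBO1 (617 to 1342 reads, 2.06-fold, 1.87 to 2.27), and the reductase AKR1B10 (880 to 410 reads, 0.441 times, 0.391 to 0.496) and the fatty acid ligase ACSL4 (2211 to 1110 reads, 0.475 times, 0.441 to 0.510). AKR1B10 differed between the controls too, at 82.2 CPM with scrambled siRNA and 44.2 in DMSO, against 36.2 in CDK4/6 KD. With PD0332991 1 of 10 was higher and 1 lower (median -0.12). These were the calcium-binding S100P (2290 to 6201 reads, 2.72-fold, 2.59 to 2.85) and DKK1, a secreted Wnt inhibitor and serum marker (378 to 45 reads, 0.121 times, 0.0857 to 0.163).

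**Figure D3:**
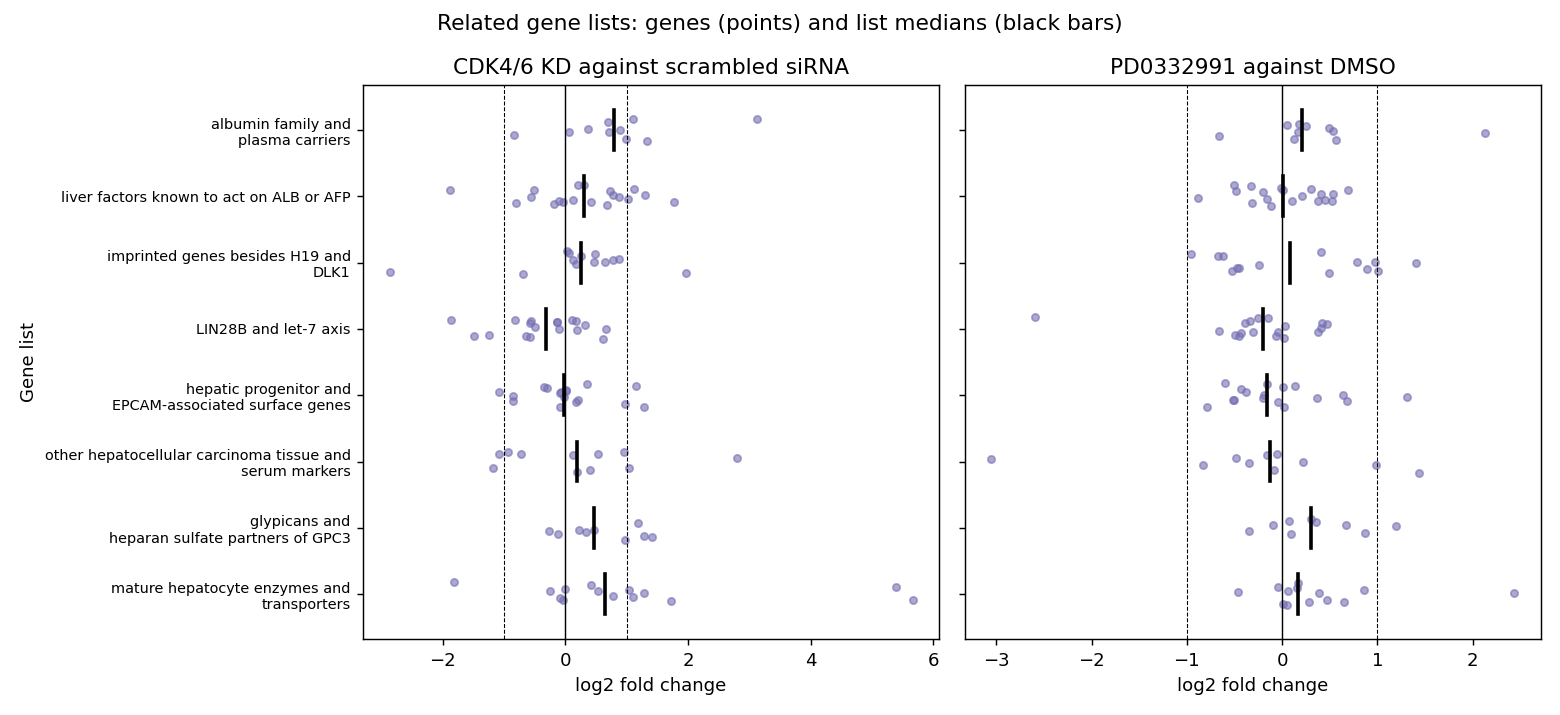
Log2 fold changes of the genes of 8 related lists (points) with the median of each list (black bar), in CDK4/6 KD against scrambled siRNA on the left and PD0332991 against DMSO on the right; dashed lines mark 2-fold. Points at the far right of the last list, left panel, are CYP7A1 and CYP2E1, which had 1 and 0 reads in the control, and their place there depends on the 0.5 reads added to each count.

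Set against IGF2BP1 within the same library, GPC3 and ALB stood higher in both inhibition libraries than in both controls. Neither ratio was among those planned. GPC3 was higher and IGF2BP1 lower in both inhibition libraries, so the division of their ratio follows from their levels and is no separate result. GPC3 had 2.55 reads per read of IGF2BP1 in DMSO and 2.39 with scrambled siRNA, and 5.49 with PD0332991 and 5.53 in CDK4/6 KD. The controls were close, and so were the inhibition libraries. ALB to IGF2BP1 was 6.62 and 6.18 in the controls, 10.1 with PD0332991 and 21.0 in CDK4/6 KD. ALB itself was not higher with PD0332991 than in DMSO, at 3050 and 3319 CPM. The higher ratio there follows from IGF2BP1, at 303 and 501 CPM, and is no separate result. IGF2BP1 to IGF2BP3, by contrast, ran from 3.82 to 5.43 with no division between controls and inhibition libraries.

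**Figure D4:**
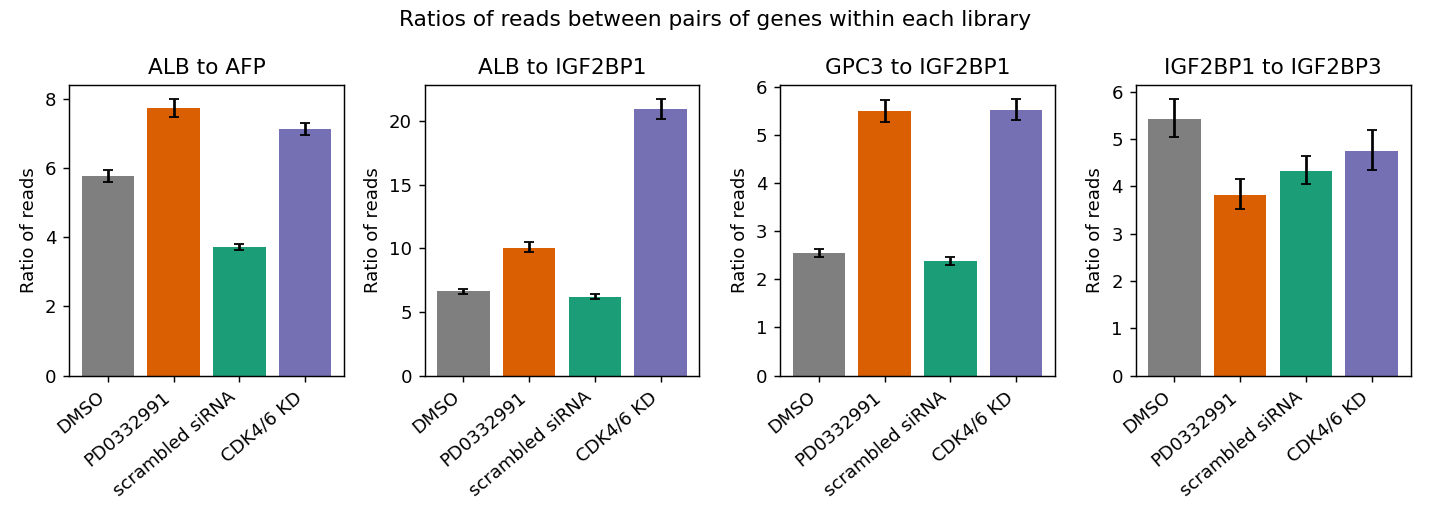
Ratios of reads between pairs of genes within each library (linear axes from 0); bars are 95% counting intervals. GPC3 to IGF2BP1 stands at 2.55 and 2.39 in the controls and at 5.49 and 5.53 in the inhibition libraries, while ALB to AFP differs between the controls as well. GPC3 was higher and IGF2BP1 lower in both inhibition libraries, so the division of their ratio follows from their levels.

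The reads on all 10 genes together made up 0.635% of the library in DMSO, 0.621% in PD0332991, 0.519% in scrambled siRNA and 0.856% in CDK4/6 KD, most of them from ALB and GPC3. The median log2 change of the set was 0.14 in the knockdown, -0.10 with PD0332991 and -0.20 in scrambled siRNA against DMSO, where the median of all genes was -0.0036, 0.018 and 0.0088. In the knockdown 6 of the 9 intervals lay above 1 and 3 below, and with PD0332991 2 of 10 lay above, 5 below and 3 held 1. Intervals that left out 1 were found for 61.9% and 56.7% of all genes, so at this depth they are no mark of the set. Between the controls, where no CDK was targeted, 7 of 9 intervals left out 1 (2 above, 5 below), beside 56.3% of genes, and no gene of the set reached 2-fold, beside 5.3% higher and 6.64% lower.

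Among 8154 genes with at least 100 reads in every library, those nearest to a gene in the shape of its 4 values were listed by the root mean square distance of centred log2 CPM. CX3CL1 lay nearest to ALB (0.021), then B4GALT4 and ANAPC13. TM2D2 lay nearest to AFP (0.012), then DOLPP1 and SUSD1. TUBG1 lay nearest to LIN28B (0.032), then RANGAP1 and QSOX2, and ZNF142 to IGF2BP1 (0.022), then SENP1 and BOLA3-AS1. Within the set, IGF2BP1 was nearer to IGF2BP3 (0.18) and LIN28B (0.27) than to the other 6 genes compared, and ALB lay at 0.41 from AFP. With 4 values, many genes share a shape, so these distances are a description only.

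Markers of other cell types moved with some libraries. The 8 fibroblast markers summed to 50.1 CPM in DMSO, 81.1 in PD0332991, 8.97 in scrambled siRNA and 23.1 in CDK4/6 KD, with DCN at 0 reads in both controls. The 10 keratinocyte markers summed to 203, 200, 362 and 203 CPM in the order DMSO, PD0332991, scrambled siRNA and CDK4/6 KD, most of it SFN and KRT10. SFN was lowest with PD0332991, at 134, 61.8, 305 and 102 CPM in that order. In the same order KRT5 had 2, 113, 13 and 43 reads and KRT14 had 9, 249, 31 and 74, both highest with PD0332991. KRT6A had 9, 150, 37 and 28 reads and KRT16 had 2, 33, 12 and 8, also highest there. KRT10 was highest in CDK4/6 KD, at 87.1 CPM against 77.0 CPM with PD0332991. TP63, DSG3 and IVL had at most 4 reads in a library. The 6 endothelial markers summed to at most 0.657 CPM, and of 8 leukocyte markers, at 512 to 1036 CPM, nearly all was LYZ, with CD3E at 0 and PTPRC at no more than 2 reads. KRT5, KRT14, KRT6A, KRT16 and the fibroblast genes were thus highest, and SFN lowest, in the library where AFP and LIN28B were lowest. KRT10 and the sum of the keratinocyte markers were not highest there. The part of these markers in those results was not tested.

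By the GENCODE 29 annotation (GRCh38), ALB (chr4:73397114-73421412) and AFP (chr4:73431138-73456174) lie side by side on the plus strand. GPC3 lies on chromosome X, H19 on 11, DLK1 on 14, LIN28B on 6, IGF2BP1 on 17, IGF2BP3 on 7, EPCAM on 2 and TTR on 18. By this annotation, IGF2BP3 was the only gene of the set with another gene of the count files within 1000 bases of its 3′ end, MALSU1 on the opposite strand. MALSU1 had 1101, 997, 1321 and 2210 reads, highest in CDK4/6 KD, where IGF2BP3 was lowest. The count files also list HOTS, from the strand opposite H19, which this annotation does not place there. HOTS had 14, 14, 4 and 11 reads in DMSO, PD0332991, scrambled siRNA and CDK4/6 KD, more than H19 in each library. Whether the counting used strand is not given in the sources used here, so the IGF2BP3 and H19 values are less certain than the others.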

How the data were processed

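RNA of HepG2 cells from 4 conditions was sequenced with QuantSeq 3′ kits on a NextSeq 500. What the authors deposited are raw counts, 1 file of 25737 entries for each library, and the submitters' processing notes name Bowtie2, edgeR and hg19 without role or version. The annotation, the counter and the use of strand are not given in the sources used here. Groups were taken from the labels. Entries sharing a symbol (286 symbols) were summed, which left 24462 genes, and no entry lacked a gene name. Library factors were TMM from edgeR 4.0.16 (R 4.3.3) over the 4 libraries, and DESeq2 1.42.0 size factors were an alternative. Fold changes used a pseudocount of 0.5 reads and a minimum of 10 reads in 1 of the libraries compared. Intervals are exact 95% Clopper-Pearson limits on the split of reads between libraries. The calculation was tested on simulated data that held counting error only, so that test says nothing of differences between cultures. A gene was called at 2-fold or more, with no p-value, since there was 1 library per condition. Every gene of the set was named, and from each related list up to 2 called genes in each direction per comparison, those with the interval end nearest to 1 farthest from it. A few genes outside this rule (RBP4, CP, HNF4A, HMGA2, IGF2BP2, LIN28A, TDO2, SLCO1B1, HAL, AFM and GC) were added after their values were seen. Genes and lists were chosen with earlier results of these data known. 3′ untranslated parts were the longest among APPRIS principal transcripts of GENCODE 29.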

Additional observations from a re-analysis of the deposited data

Results flagged for a closer look

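For ALB the 2 ways of blocking CDK4 and CDK6 gave changes of opposite sign, each against its own control: the log2 change in CDK4/6 KD minus that with PD0332991 was 1.13. Against scrambled siRNA, ALB with PD0332991 was 1.19 times, so the opposite sign depended on the control. For AFP the same difference was 0.61. Each arm has 1 library per condition and its own control, so neither difference was tested.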

How the results depend on the processing

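No paired analysis was possible because each condition has 1 library and the labels carry no replicate numbers, and no library could be left out. Of 313 fold changes of single genes of the set under alternatives, 257 stayed within their counting interval and 56 did not. The sign turned in 8, of which 3 stayed within the interval: EPCAM with PD0332991 under upper-quartile factors (0.00033) and with the mean of the controls (0.017), and IGF2BP3 between the controls under total counts (-0.0056). Other scalings moved a log2 change by at most 0.32 (quantile) and 0.10 (total counts). With the control of the other arm, the log2 change with PD0332991 became 0.25 for ALB and -0.30 for TTR, that of EPCAM became 0.12 with PD0332991 and -0.060 in the knockdown, and list medians turned sign: with PD0332991 to 0.011 for the LIN28B and let-7 axis, 0.062 for the progenitor and surface genes and 0.19 for the other liver cancer markers, and in the knockdown to -0.039 for imprinted genes and -0.16 for liver factors. The glypican list with PD0332991 went from 0.31 to 1.15. The medians of lists near 0, the progenitor list in the knockdown (-0.02) and liver factors with PD0332991 (0.005), also changed sign between scalings. With the mean of the controls, an alternative chosen after seeing the data like those on list medians, ALB with PD0332991 was 0.050 and the median of the set 0.033.

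The median of the set in the knockdown was 0.023 with the control of the other arm, 0.24 under quantile normalization and 0.25 under total counts, and with PD0332991 it was -0.020 under upper-quartile factors. The number of genes at least 2-fold higher in the knockdown was 0 with the mean of the controls and when the whole interval had to pass 2-fold. With the other control the gene that reached 2-fold was TTR (2.40-fold), while ALB was at 1.56-fold. The number 2-fold lower in the knockdown was 1 with the other control (IGF2BP1), and 3 at 1.5-fold. With PD0332991 the number higher was 1 with the other control (H19), 1 with the mean of the controls and 1 at 1.5-fold, and the number lower was 1 with the other control (LIN28B), 1 with the mean of the controls and 2 at 1.5-fold. In scrambled siRNA against DMSO 1 gene was higher at 1.5-fold, and with no filter 1 (H19) was lower. With 1 library per condition, differences between cultures and those of treatment cannot be told apart.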
